A study of Mus musculus with 16 samples.

Results

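The first step of an in vitro differentiation of mouse embryonic stem (ES) cells was analysed, from ES cells in culture to embryoid bodies (EBs) after 4 days of aggregation (EB4), in cells with an intact Taf4a gene (labelled Taf4+/+ and named WT here). The 4 libraries were chosen by their labels, 2 of WT ES cells and 2 of WT EB4, among the 16 libraries of the series. ES cells had been grown on inactivated mouse embryonic fibroblast (MEF) feeders in medium with fetal calf serum and leukaemia inhibitory factor (LIF). The EB4 cells were collected before the retinoic acid of the neuronal protocol had been added. The study's methods for spontaneous EB formation describe feeder-depleted cells kept floating in non-adherent plates with less serum and no LIF, and the neuronal protocol is cited there rather than spelled out. All lines came from blastocysts of crosses between Taf4a heterozygous mice, and the study's methods state that the libraries came from 2 independent lines of each genotype, but the labels do not say which replicate number marks which line. The question was which transcripts changed while the cells left the ES state and before any retinoic acid was present.

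Mouse ES cells in serum and LIF hold the naive pluripotency of the preimplantation epiblast, through LIF and Stat3 signalling and a network of factors that includes Klf4, Esrrb, Tfcp2l1 and Tbx3. When LIF is withdrawn, Fgf and Erk signalling and Tcf7l1 help the cells to dismantle that network. They then pass through a formative state like the epiblast after implantation, with Fgf5, Otx2 and Dnmt3b on and Pou5f1 still present, before they take on germ layer fates. The core of an aggregate is also farther from the oxygen of the medium than a flat colony, and genes with hypoxia response elements are textbook targets of the factors Hif1a and Arnt.

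Poly-A RNA had been sequenced as single-end reads, and values are read counts divided by a size factor of each library (normalised counts). For WT ES, recovered reads came to 32631020 and 35029637 and, for WT EB4, to 26580885 and 25747479. All 4 ES libraries of the series were deeper than all 12 EB libraries, so that stage and any sequencing run that went with it cannot be told apart. Values are given below as replicate 1 and then replicate 2, and p-values measure only the spread between such libraries.

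WT ES and EB4 libraries of the same number differed in the level of chromosome 8 (replicate 1) or of the sex chromosomes (replicate 2). The library labelled WT ES replicate 2 had almost no reads from the Y chromosome: Ddx3y, a Y-linked RNA helicase, had 1237 and 0 in ES and 288 and 211 in EB4, and Eif2s3y, a Y-linked translation factor, had 2248 and 3.99 in ES and 1323 and 1277 in EB4. Xist, the RNA that coats the inactive X chromosome, had 15.5 and 550.1 in ES and 39.5 and 52.5 in EB4. The median relative level of the X chromosome, over the tested genes and on the log2 scale, was 0.47 in that library against -0.22 in ES replicate 1 and -0.19 and -0.15 in EB4. Chromosome 8 stood at 0.41 in EB4 replicate 1 and at -0.15, -0.16 and -0.12 in ES replicates 1 and 2 and EB4 replicate 2. The first EB5 and EB8 libraries of WT showed the same raised level of chromosome 8 (0.39 and 0.38). Neither ES library therefore matched the chromosome pattern of EB4 replicate 1, and ES replicate 2 matched neither EB4 library. What part such differences between the cultures had in the changes from ES to EB4 was not tested. Between replicates the median difference per gene was 0.44 in ES and 0.35 in EB4 on the log2 scale, against 0.49 between the stage means.

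**Figure D1:**
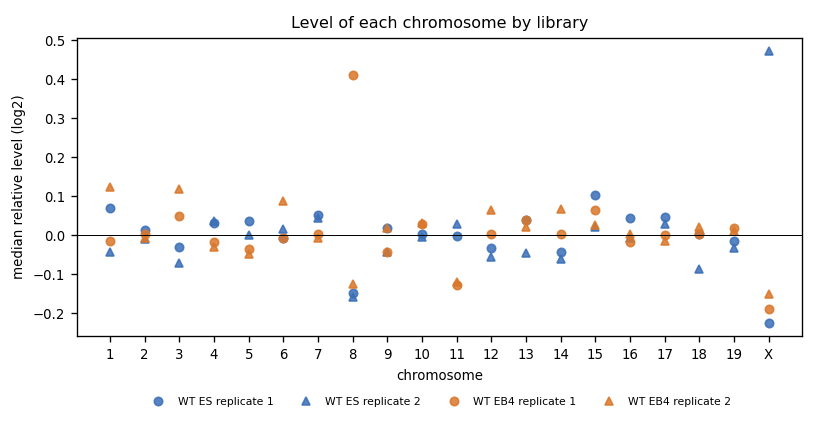
Median relative level of each chromosome (y axis, log2, over the tested genes, each gene centred on its mean over 16 libraries) in the 4 WT libraries. X in ES replicate 2 (0.47) and chromosome 8 in EB4 replicate 1 (0.41) lie apart from the other chromosomes.

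Of 16124 genes whose mean reached 10 normalised counts, 2668 (16.5%) differed between WT EB4 and WT ES at an adjusted p under 0.05 in limma, fitted over all 16 libraries. A total of 1448 genes (8.98%) were higher and 1220 (7.57%) were lower in EB4. The median log2 change was 1.24 among the genes that rose and -1.35 among those that fell, and it was -0.02 over all tested genes. At least a 4-fold difference (2 on the log2 scale) was reached by 299 of the genes that rose and by 412 of those that fell. Of those that rose, 16 had 3 reads or fewer in both ES libraries, and 56 of those that fell had 3 or fewer in both EB4 libraries. Without ES replicate 2 the counts were 1144 higher and 861 lower. They were 863 and 646 without EB4 replicate 1, and 662 and 627 without EB4 replicate 2. With the 4 WT libraries fitted alone limma called 0 genes, with 3380 at an unadjusted p under 0.05, so every call below draws on the spread shared with the other 12 libraries. As a description, genes on chromosome 8 rose more often (12.3% of 853) and fell less often (2.70%) than genes outside X, Y and chromosome 8 (9.02% and 7.85% of 14652), and X-linked genes rose less often (3.43% of 613). Genes on chromosome 11 rose less often (5.23% of 1338) and fell more often (10.3%). The median relative level of chromosome 11 was -0.0007 and 0.03 in ES and -0.13 and -0.12 in EB4.

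**Figure D2:**
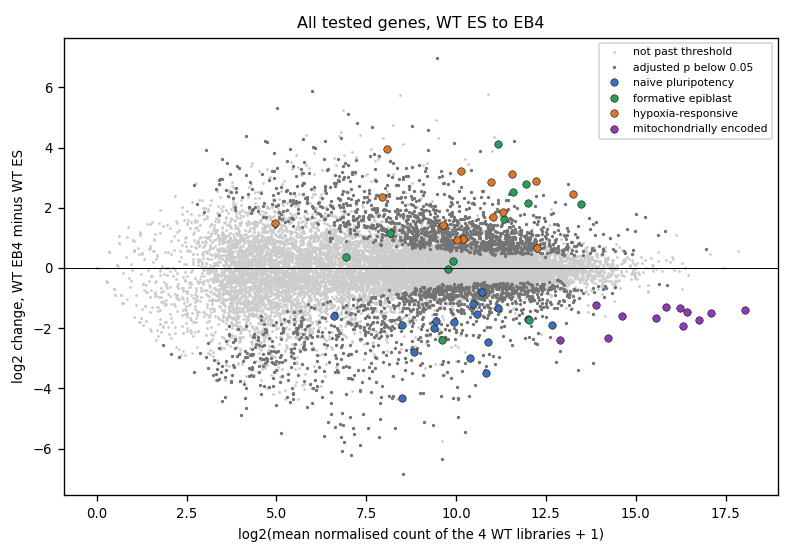
Log2 change (y axis, WT EB4 minus WT ES) against the log2 mean normalised count of the 4 WT libraries (x axis), 1 point per tested gene, with 4 gene lists in colour. The naive and mitochondrially encoded genes lie below 0, the hypoxia-responsive genes above it, and 10 of 14, 12 of 12 and 10 of 16 members of the hypoxia, mitochondrial and naive lists were past the threshold. Over all tested genes 16.5% were past it.

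**Figure D3:**
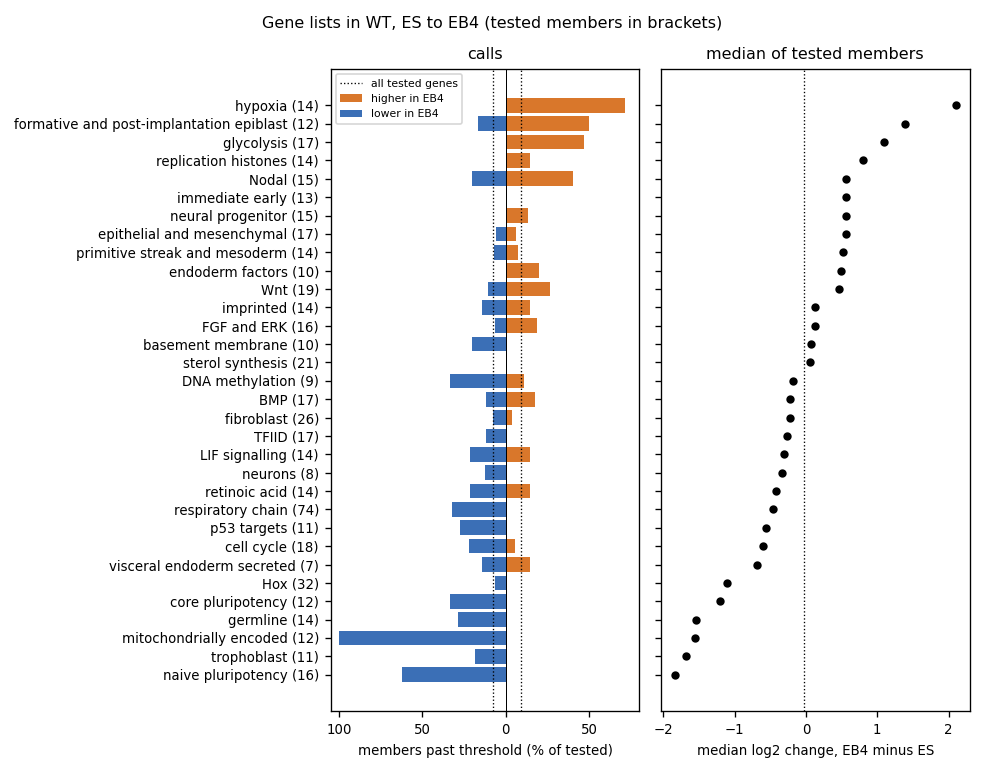
Share of tested members past the threshold in each gene list (left, % of the tested members given in brackets) and their median log2 change (right), with dotted lines for all tested genes. The hypoxia list had the highest median (2.10) and the naive pluripotency list the lowest (-1.84) of the lists plotted.

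Most naive pluripotency genes fell. Of 16 members, 10 fell, 0 rose and 6 did not pass the test in limma, with a median log2 change of -1.84 against -0.02 over all genes. Of all tested genes 8.98% rose and 7.57% fell. In the naive list edgeR called 11 and DESeq2 called 14. Klf4 (chr4:55540013-55545347 on build NCBI37, reverse strand), a factor that can sustain self-renewal when LIF is limiting, had 2929 and 3599 in ES and 141 and 589.8 in EB4. Both EB4 libraries lay well below both ES libraries (8.93-fold lower on the means; log2 change -3.49, SE 0.57, adjusted p = 0.0029). Gbx2, a LIF and Stat3 target, had 1273 and 128 in ES and 12.1 and 30.0 in EB4, and was 33.3-fold lower although the ES libraries themselves lay far apart (log2 change -4.33, SE 0.84, adjusted p = 0.0061). Esrrb, the nuclear receptor that binds many naive enhancers, went from 7375 and 13418 to 3449 and 2053 (log2 change -1.90, SE 0.33, adjusted p = 0.0037). Its partner Tfcp2l1 went from 5861 and 6661 to 1553 and 2399 (log2 change -1.69, SE 0.31, adjusted p = 0.0048). These groups did not overlap, which was so with EB4 below ES in 27.6% of tested genes. Nr0b1 (-2.99), Nr5a2 (-1.77) and Klf5 (-1.52), all transcription regulators of the naive network, also fell on the log2 scale.

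The other 3 naive calls were each lost without ES replicate 2 and also without EB4 replicate 1. Those for Pecam1 and Tcl1 were lost without EB4 replicate 2 as well. Tbx3, a T-box factor, had 847 and 2224 in ES and 266 and 583 in EB4. Pecam1, an adhesion molecule of the inner cell mass, had 766 and 6016 in ES and 475 and 316 in EB4, and Tcl1, a cofactor of the kinase Akt, had 188 and 1472 in ES and 98.6 and 56.8 in EB4. In all 3 genes ES replicate 2 held the highest value, and without that library none of the 3 was past the threshold. The naive list then had 7 members lower and a median of -1.54. Members that did not pass included Klf2 (1432 and 5334 in ES and 1760.1 and 678 in EB4), Dppa3 (904 and 1222 in ES and 184 and 383 in EB4) and Zfp42 (1749 and 1835 in ES and 2714 and 399 in EB4). Zfp42, also known as Rex1 and used as a reporter of the naive state, was higher than in ES in 1 EB4 library and lower in the other.

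Of the 12 core pluripotency genes, 4 fell and 0 rose in limma (median -1.21), where 7.57% of all tested genes fell. In this list edgeR called 3 and DESeq2 called 7. Pou5f1, the factor Oct4 that is required for pluripotency, had 29929.9 and 27999 in ES and 19285 and 9597 in EB4, and the difference did not pass (log2 change -1.09, SE 0.38, adjusted p = 0.069). Sox2, its partner on DNA, had 10942 and 15036 in ES and 8727 and 9979 in EB4 (log2 change -0.46, SE 0.24, adjusted p = 0.21). Nanog had 6242 and 22357 in ES and 6388 and 3465 in EB4, so that EB4 replicate 1 was level with ES replicate 1 and the test was not passed (log2 change -1.33, SE 0.55, adjusted p = 0.12). The 4 that fell were Dppa2, Dppa4, Dppa5a and Gdf3. Dppa2 and Dppa4, chromatin proteins that act as a pair, had 2771 and 2815 in ES and 607 and 167 in EB4 (Dppa2, log2 change -3.13, SE 0.59, adjusted p = 0.0053) and 2845 and 2905 in ES and 1309 and 414 in EB4 (Dppa4, log2 change -1.96, SE 0.55, adjusted p = 0.03). Gdf3, a ligand of the Tgf-beta family, was 6.81-fold lower (3794 and 3498 in ES and 765 and 306 in EB4). Dppa5a, an RNA-binding protein of ES cells, was 9.45-fold lower (13360.3 and 38420.3 in ES and 3718 and 1764 in EB4). In later EBs Pou5f1 was at 4186 and 1936 in EB5 and 193 and 260.5 in EB8, which are values given for context and not tested here.

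Of the 12 tested genes of the formative epiblast, 6 rose, 2 fell and 4 did not pass in limma (median 1.39), and Pou3f1 was under the filter. Of all tested genes 8.98% rose and 7.57% fell. In the formative list edgeR called 8 and DESeq2 called 9. Fgf5 (chr5:98683203-98706049, forward strand), the growth factor that marks the epiblast after implantation, had 209 and 286 in ES and 3708 and 4971 in EB4. It rose 17.5-fold (log2 change 4.13, SE 0.47, adjusted p = 0.00063) and stayed past the threshold with each WT library left out in turn. In the later EBs its counts were 163 and 266 in EB5 and 87.2 and 97.4 in EB8, so that EB4 held the highest values of the 4 WT stages. Otx2, a factor that opens formative enhancers, went from 1088 and 2016 to 7163 and 6070.3 (log2 change 2.15, SE 0.53, adjusted p = 0.017). Zic2 and Zic5, zinc finger factors, rose by 2.78 and 1.64 on the log2 scale, Sall2 by 2.53 and the kinase gene Pim2 by 2.12. The call for Otx2 was lost without ES replicate 1 and without either EB4 library. Tcf15, a factor of cells primed to differentiate, was among those that fell (1667 and 922 in ES and 374 and 145 in EB4).

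Of 9 genes of DNA methylation and demethylation, 1 rose and 3 fell, where 8.98% of all tested genes rose and 7.57% fell. Dnmt3b (chr2:153475186-153513466, forward strand), a de novo methyltransferase, had 18216 and 11013 in ES and 68132 and 35339.7 in EB4, a 3.54-fold rise (log2 change 1.79, SE 0.39, adjusted p = 0.01). Dnmt3l (chr10:77504692-77526367, forward strand), the cofactor without catalytic activity, had 11536 and 13850.4 in ES and 1185 and 1811 in EB4, an 8.47-fold fall (log2 change -3.11, SE 0.49, adjusted p = 0.0025). Tet1 and Tet2, which oxidise methylated cytosine, went from 16378 and 13003 to 8221 and 6545 (Tet1, adjusted p = 0.026) and from 1981 and 2082 to 653 and 969 (Tet2, adjusted p = 0.014). Dnmt1, the maintenance enzyme, had 12426 and 9456 in ES and 10609 and 8571 in EB4 and did not pass (log2 change -0.18, SE 0.16, adjusted p = 0.45). The rise of Dnmt3b was not past the threshold without ES replicate 2 or without EB4 replicate 1.

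**Figure D4:**
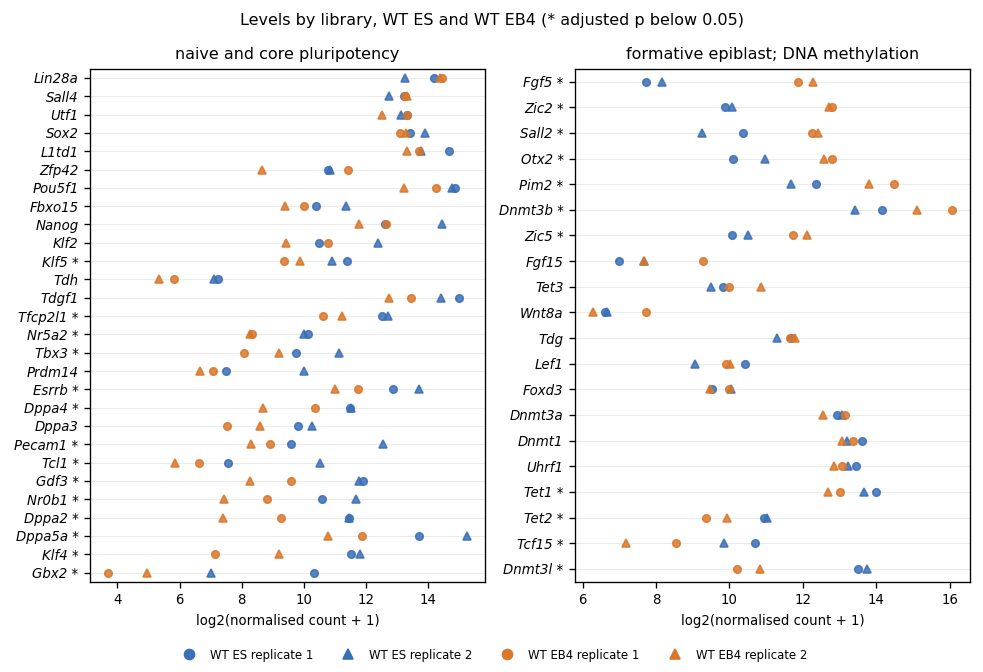
Log2(normalised count + 1) of tested naive, core, formative and DNA methylation genes (genes in rows, level on the x axis) in the 2 WT ES and 2 WT EB4 libraries, ordered by log2 change, with * for an adjusted p under 0.05. Fgf5 rose from 209 and 286 to 3708 and 4971, and Klf4 fell from 2929 and 3599 to 141 and 590 normalised counts.

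Counts of the signalling lists that follow stand against the 8.98% of all tested genes that rose and the 7.57% that fell. Among LIF signalling genes calls went both ways. Of 14 members, 2 rose and 3 fell (median -0.30). The receptor Lifr fell from 1593 and 1393 to 952 and 902 and Stat3, the factor it activates, from 3703 and 2216 to 1481 and 1495 (adjusted p = 0.017 and 0.031). The kinase gene Pim1, a Stat3 target, fell 2.64-fold. The receptor-associated kinases Jak1 (0.68) and Jak2 (1.69) rose on the log2 scale. Among these genes only Jak2 kept its call with each WT library left out in turn. The calls for Lifr, Stat3 and Pim1 were each lost without ES replicate 1 and without EB4 replicate 1. Socs3, the feedback inhibitor that reports Stat3 activity, had 2507 and 272 in ES and 441 and 635 in EB4 and did not pass, with the ES libraries on both sides of EB4.

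In the Fgf pathway 3 of 16 members rose and 1 fell (median 0.12). The receptor Fgfr1 rose from 3116 and 3152 to 6877 and 5471 (log2 change 0.97, SE 0.24, adjusted p = 0.017). Of the feedback inhibitors, Spry1 rose from 390.5 and 753 to 2071 and 1365 and the phosphatase Dusp4 by 1.88 on the log2 scale. Fgfr1 and Dusp4 lie on chromosome 8, the chromosome raised in EB4 replicate 1. The call for Fgfr1 was lost without that library, but also without either ES library. That for Dusp4 was lost without either EB4 library and without ES replicate 2. Etv4, a transcription factor induced by Erk, fell 4.63-fold (3394 and 1732 in ES and 814 and 293 in EB4). The ligand Fgf4 had 4681 and 12649.7 in ES and 2407 and 1178 in EB4 and did not pass (log2 change -2.19, SE 0.83, adjusted p = 0.091). Dusp6, often read as a gauge of Erk activity, had 6338 and 1461 in ES and 2862 and 3472 in EB4, with both EB4 values inside the range of ES.

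In the Nodal list calls went both ways. Of 15 tested members, 6 rose and 3 fell (median 0.57). Nodal itself went from 2358 and 2944 to 1047 and 679.8 (log2 change -1.64, SE 0.31, adjusted p = 0.0055), and Pcsk6, a protease that matures it, fell by 1.18 on the log2 scale. The other such protease, Furin, rose 2.46-fold (897 and 1348 in ES and 2498 and 3016 in EB4). Type II receptors Acvr2a and Acvr2b rose by 0.69 and 1.20. Smad3, which carries the signal, rose from 770.0 and 908 to 1965 and 2847 (log2 change 1.50, SE 0.23, adjusted p = 0.0022), and Smad4, the common partner, from 2204 and 1967 to 4644 and 5156 (log2 change 1.23, SE 0.15, adjusted p = 0.00071). The inhibitor Smad7 fell 2.02-fold. The antagonists Lefty1 and Lefty2 did not pass, with Lefty2 at 2145 and 7349 in ES and 2481 and 783 in EB4.

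For bone morphogenetic proteins (BMP), 3 of 17 members rose and 2 fell (median -0.22). Bmp4, the ligand, fell from 382 and 336 to 114 and 174 (adjusted p = 0.048). The receptors Bmpr1a and Acvr1 rose by 0.79 and 0.89, and Smad1 by 1.11. Among the Id genes, targets that hold back differentiation, Id2 fell from 2198 and 1537 to 407 and 485 (log2 change -2.05, SE 0.25, adjusted p = 0.00087). Id1 had 2915 and 442 in ES and 506 and 607 in EB4 and did not pass.

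Of 19 Wnt pathway members, 5 rose and 2 fell (median 0.47). The receptor Fzd7 rose from 4192 and 3083 to 10238 and 9754 (log2 change 1.47, SE 0.21, adjusted p = 0.0017) and the coreceptor Lrp6 from 2996 and 2535 to 4738 and 5392. Ctnnb1, which encodes beta-catenin, rose 1.39-fold, Tcf7 2.38-fold and Tcf7l1, the repressor of naive genes, 1.68-fold. The ligands Wnt3a (34.6 and 12.0 in ES and 2.19 and 4.29 in EB4) and Wnt7a (122 and 46.2 in ES and 1.10 and 19.3 in EB4) fell. The pathway's feedback target Axin2 had 402 and 206 in ES and 572 and 413 in EB4 and did not pass (log2 change 0.75, SE 0.43, adjusted p = 0.24).

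Most hypoxia-responsive genes rose, with 10 of 14 members higher, 0 lower and a median log2 change of 2.10. Of all tested genes 8.98% rose. Egln1 (chr8:127432496-127473154, reverse strand), an oxygen sensor that hydroxylates Hif1a, had 589.8 and 667 in ES and 5489 and 5336 in EB4, an 8.61-fold rise (log2 change 3.11, SE 0.33, adjusted p = 0.00046). Its paralogue Egln3 had 331 and 692 in ES and 3049 and 3990.0 in EB4 (log2 change 2.86, SE 0.52, adjusted p = 0.0044). Bnip3 (chr7:146082519-146101202, reverse strand), which marks mitochondria for removal, had 712 and 1709 in ES and 7452 and 9102 in EB4, a 6.84-fold rise (log2 change 2.90, SE 0.53, adjusted p = 0.0045). In these genes the lower EB4 library was above the higher ES library by several fold. Adm, the vasoactive peptide adrenomedullin, had 53.7 and 18.3 in ES and 535 and 476 in EB4 (log2 change 3.96, SE 0.79, adjusted p = 0.0071). Ndrg1, a stress-induced gene, had 190.2 and 231 in ES and 1500.4 and 2597 in EB4 (log2 change 3.23, SE 0.79, adjusted p = 0.017), and Ddit4, an inhibitor of mTORC1, had 2267 and 3919 in ES and 20176 and 13049 in EB4 (log2 change 2.44, SE 0.65, adjusted p = 0.024). Ankrd37 (2.35), the collagen hydroxylases P4ha1 (1.85) and P4ha2 (1.41) and the mitochondrial protein gene Higd1a (0.97) also rose. Vegfa (442 and 1542 in ES and 1489 and 4825 in EB4), Car9 (14.6 and 15.9 in ES and 39.5 and 50.4 in EB4), Mxi1 and Kdm3a did not pass.

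Egln1 and Ankrd37 lie on chromosome 8, the chromosome raised in EB4 replicate 1, but their EB4 values were near equal in the 2 libraries and both were past the threshold without it. Without ES replicate 2, 9 members of the hypoxia list were higher. The count fell to 5 without EB4 replicate 2 and was 6 without ES replicate 1. In the later EBs of WT, Bnip3 was at 10733 and 6184 in EB5 and 3842 and 7906 in EB8, and Egln1 at 8924 and 5165 and 6446 and 6828, all above the ES values.

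The promoters of these genes were read for the core of the hypoxia response element, which is ACGTG or GCGTG on either strand, CACGT or CACGC when it lies on the other strand. The motif was chosen after the values had been seen. In the 250 bases before the start of transcription (RefSeq, build GRCm38.p6), it was found in 11 of the 13 hypoxia-list promoters that could be matched (84.6%) and in 11 of 16 glycolysis-list promoters (68.8%). It was also in 38.6% of all 27025 RefSeq promoters of that length and in 55.3% of the 12024 that belong to tested genes, so a match by itself is common, and G and C bases, counted over the 250 bases before and 50 after the start, are more frequent in the hypoxia-list promoters (median 69.0% against 60.7% among tested genes). The 120 bases next to the start are shown for 4 members that rose, to let the positions of the matches be seen. Capitals mark every base inside a match, and matches can overlap. They were taken at chr7:138909507-138909626 for Bnip3 (reverse strand), chr8:124949255-124949374 for Egln1 (reverse strand), chr8:45999851-45999970 for Ankrd37 (reverse strand) and chr11:54100804-54100923 for P4ha2 (forward strand).
Bnip3: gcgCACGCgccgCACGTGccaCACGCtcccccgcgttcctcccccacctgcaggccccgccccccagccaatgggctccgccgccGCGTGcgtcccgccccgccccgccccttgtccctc
Egln1: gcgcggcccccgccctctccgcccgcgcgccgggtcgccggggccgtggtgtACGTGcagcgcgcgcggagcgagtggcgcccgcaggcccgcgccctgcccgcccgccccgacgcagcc
Ankrd37: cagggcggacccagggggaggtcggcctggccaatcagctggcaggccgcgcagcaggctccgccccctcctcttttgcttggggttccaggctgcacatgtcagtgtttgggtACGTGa
P4ha2: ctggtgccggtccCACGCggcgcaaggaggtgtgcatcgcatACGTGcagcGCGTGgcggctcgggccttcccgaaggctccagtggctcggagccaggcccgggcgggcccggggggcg
The stretches held 5 matches in Bnip3, 1 in Egln1, 1 in Ankrd37 and 3 in P4ha2. Egln3, whose log2 change was close to that of Bnip3, had 0 matches in its last 120 bases and 1 in the whole 250. A match is a string of letters and not a measured binding site.

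Of 17 glycolysis genes, 8 rose, 0 fell and 9 did not pass (median 1.10), where 8.98% of all tested genes rose. Slc2a1, the glucose transporter Glut1, had 20611 and 15581 in ES and 42195 and 79474 in EB4 (log2 change 1.69, SE 0.44, adjusted p = 0.023). Pfkl, a subunit of the enzyme that commits sugar to glycolysis, had 7488 and 7692 in ES and 18870.5 and 23349 in EB4 (log2 change 1.47, SE 0.28, adjusted p = 0.0057), and Tpi1, triosephosphate isomerase, had 8402 and 7284 in ES and 21426 and 23529 in EB4 (log2 change 1.52, SE 0.28, adjusted p = 0.0051). Both groups were tight and apart from each other. Pgk1 rose 2.35-fold, Aldoa 2.31-fold, Gpi1 2.21-fold and Ldha, which makes lactate, 2.12-fold. Pdk1, the kinase that closes the entry of pyruvate into the mitochondrial cycle, had 4253 and 3404 in ES and 14140.2 and 7475 in EB4 (log2 change 1.43, SE 0.42, adjusted p = 0.035). Gapdh had 44833 and 34124 in ES and 52344 and 45745 in EB4 and did not pass (log2 change 0.32, SE 0.23, adjusted p = 0.35). The count was 6 without ES replicate 2, 4 without ES replicate 1, 6 without EB4 replicate 1 and 3 without EB4 replicate 2.

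**Figure D5:**
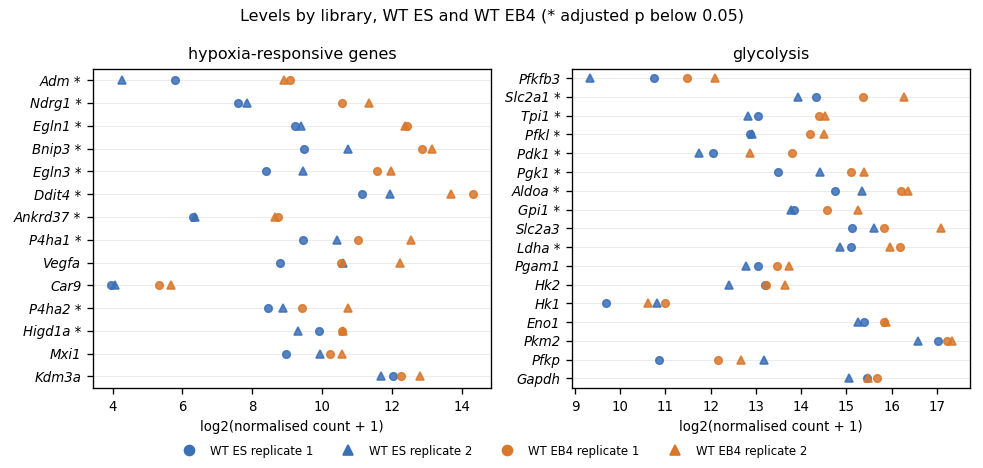
Log2(normalised count + 1) of each tested hypoxia-responsive (left) and glycolysis gene (right) in the 2 WT ES and 2 WT EB4 libraries, ordered by log2 change, with * for an adjusted p under 0.05. Egln1 rose from 590 and 667 to 5489 and 5336 normalised counts, and all 31 genes have a positive log2 change.

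Mitochondrial transcripts fell. All 12 of the tested protein-coding genes of the mitochondrial genome were lower in EB4 (median -1.55), where 7.57% of all tested genes fell. Together with the 1 member under the filter, the mitochondrial list took 4.23% and 5.48% of reads in WT ES, 1.99% and 1.43% in EB4 and 1.27% to 2.51% in the 4 later WT libraries. mt-Co1, a subunit of cytochrome c oxidase, had 338441 and 447053 in ES and 172101 and 124765 in EB4 (log2 change -1.41, SE 0.25, adjusted p = 0.0044). mt-Atp8, a subunit of the ATP synthase, had 14391 and 10964 in ES and 2907 and 1953 in EB4 (log2 change -2.40, SE 0.32, adjusted p = 0.0013), and mt-Nd3, of complex I, had 27363 and 36749 in ES and 7499 and 5305 in EB4 (log2 change -2.33, SE 0.41, adjusted p = 0.004). Without ES replicate 2 only 6 of the 12 were past the threshold, and without EB4 replicate 2 only 5. Of 74 nuclear genes of the respiratory chain, 24 fell and 0 rose (median -0.46), where 7.57% of all tested genes fell. Among the genes that passed, the largest falls were those of Uqcr10 (-1.27), a subunit of complex III, Atp5g1 (-1.18), a ring subunit of the ATP synthase, and Ndufs5 (-0.95), of complex I. This count was 14 without ES replicate 2 and 4 without EB4 replicate 2. Mitochondrial transcripts are also read as a sign of RNA and library quality, whose part in their fall was not tested. In bulk RNA, fewer cells of a type and less RNA per cell cannot be told apart.

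Counts of germ layer genes stand against the 16.5% of all tested genes that passed in either direction. Of 14 tested genes of the primitive streak and mesoderm, 1 rose and 1 fell (median 0.52). Eomes, a T-box factor of the streak and of endoderm, rose from 190.2 and 366 to 1002 and 1064 (log2 change 1.96, SE 0.49, adjusted p = 0.02). Its call was lost without ES replicate 1 and without either EB4 library. T, the mesoderm factor brachyury, had 302 and 130.0 in ES and 99.7 and 807 in EB4, and Mixl1, a streak homeobox gene, had 51.0 and 37.5 in ES and 26.3 and 299 in EB4. Both were far higher in EB4 replicate 2 than in EB4 replicate 1, and neither passed. Cdx1, a posterior homeobox gene, fell (84.6 and 28.7 in ES and 5.48 and 18.2 in EB4). Of 10 endoderm factors 2 rose and the other 8 did not pass. Those that rose were Foxa2 (13.7 and 5.58 in ES and 57.0 and 51.5 in EB4) and the endocytic adaptor Dab2 (282 and 178 in ES and 706 and 736 in EB4). The call for Foxa2 was lost without ES replicate 2 and without either EB4 library. That for Dab2 was lost whichever WT library was left out. Of 7 tested genes for proteins secreted or taken up by visceral endoderm, the receptor Cubn rose (107 and 14.4 in ES and 153 and 588 in EB4) and Trf, transferrin, fell (47.3 and 48.6 in ES and 6.58 and 5.36 in EB4), and Afp, Ttr, Apoa1, Apoa4 and Fgb were under the filter.

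The same share applies to the neural lists. Of 15 neural progenitor genes 2 rose, Sox3 (151 and 195 in ES and 969.9 and 517 in EB4; log2 change 2.04, SE 0.45, adjusted p = 0.011) and the RNA-binding protein gene Msi1 (633 and 852 in ES and 2390.3 and 2982 in EB4; log2 change 1.86, SE 0.29, adjusted p = 0.0024), both of which are also expressed in epiblast. Pax6, the factor of the later radial glia-like cells of this protocol, had 187 and 74.9 in ES and 235 and 131 in EB4 and did not pass. Of 8 neuronal genes, Tubb3, a tubulin, fell (2181 and 2263 in ES and 667 and 550.1 in EB4; log2 change -1.87, SE 0.27, adjusted p = 0.0017) and 0 rose. Of 32 tested Hox genes 2 fell and 0 rose in limma, where 7.57% of all tested genes fell. In this list edgeR called 0 and DESeq2 called 4. Hoxa10 had 15.5 and 6.38 in ES and 0 reads in both EB4 libraries, and Hoxb9 had 40.05 and 47.0 in ES and 3.29 and 17.2 in EB4. The call for Hoxa10 was lost whichever WT library was left out. That for Hoxb9 was lost without either ES library and without EB4 replicate 1.

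Some genes of the retinoic acid pathway differed before the acid was added. Of 14 members, 2 rose and 3 fell, where 8.98% of all tested genes rose and 7.57% fell. Dhrs3, a retinaldehyde reductase, had 24.6 and 26.3 in ES and 318 and 181 in EB4, a 9.81-fold rise (log2 change 3.19, SE 0.34, adjusted p = 0.00046). The receptor gene Rarb rose from 16.4 and 7.18 to 37.3 and 81.5. Aldh1a2, which makes retinoic acid, fell from 40.05 and 121 to 4.38 and 10.7 (log2 change -3.16, SE 0.61, adjusted p = 0.0059). Crabp1, a binding protein, fell 5.03-fold, and the receptor Rara 1.82-fold. Cyp26a1, the degrading enzyme and a strong target, had 57.3 and 69.4 in ES and 53.7 and 344 in EB4 and did not pass.

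Counts of the germline and trophoblast lists stand against the 7.57% of all tested genes that fell. Of 14 germline genes 4 fell and 0 rose (median -1.54). Stra8, a meiotic gene that retinoic acid induces, had 83.7 and 299 in ES and 2.19 and 4.29 in EB4 (log2 change -5.28, SE 0.67, adjusted p = 0.001), and with the acid present it stood at 4534 and 1549 in EB5. Tex19.1, which restrains transposons, had 1412 and 3447 in ES and 354 and 225 in EB4 (log2 change -2.96, SE 0.38, adjusted p = 0.0011). Nanos3 and the Tudor domain gene Stk31 also fell. Of 11 trophoblast genes, Tfap2c (1875 and 4862 in ES and 751 and 1144 in EB4) and Tead4 (521 and 748 in ES and 242 and 309 in EB4) fell and 0 rose. Neither call was kept without ES replicate 2 or without either EB4 library. Of the 4 genes of the 2-cell-like state, 0 passed in limma, with 1 at an unadjusted p under 0.05 and 0 called by edgeR or DESeq2. Zscan4d had 1.82 and 41.5 in ES and 3.29 and 0 in EB4.

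The 12 largest rises, taken by a rule over all protein-coding genes, were not on the pathway lists. Kbtbd11 (chr8:15011025-15033330, forward strand), a Kelch domain gene, had 6.37 and 7.18 in ES and 2444 and 383 in EB4, a 209-fold rise (log2 change 6.96, SE 0.81, adjusted p = 0.00067). Its EB4 values differed by several fold between the libraries, the higher in EB4 replicate 1, but both were far above ES and the call held without that library. Grin1, a glutamate receptor subunit, had 2.73 and 12.0 in ES and 208 and 281 in EB4 (log2 change 5.13, SE 0.54, adjusted p = 0.00046). Rgl3, a regulator of Ral, had 38.2 and 56.6 in ES and 1130.0 and 1146 in EB4, Thsd7a 38.2 and 22.3 in ES and 1139 and 545 in EB4 and Cdh22, a cadherin, 5.46 and 9.57 in ES and 136 and 172 in EB4. The transcription factor Foxp2 went from 4.55 and 17.5 to 157 and 259. Stc1, stanniocalcin, had 10.9 and 7.18 in ES and 215 and 364 in EB4, and Ndufa4l2, a mitochondrial protein gene, had 4.55 and 36.7 in ES and 473 and 289.5 in EB4. Stc1 and Ndufa4l2 are both known as genes that low oxygen induces. Slc22a3, a cation transporter, had 0 and 3.19 in ES and 92.1 and 157 in EB4, Gm626 0.910 and 0 in ES and 30.7 and 94.4 in EB4 and the zinc transporter Slc39a8 765 and 103 in ES and 3483 and 8064 in EB4. Slc39a8 was past the threshold in the full fit and without ES replicate 1, but not without any 1 of the other 3 WT libraries.

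Among the 12 largest falls, Nlrp4f had 998 and 2078 in ES and 9.86 and 27.9 in EB4 (log2 change -6.35, SE 1.13, adjusted p = 0.0042). Its family member Nlrp4c had 37.3 and 428 in ES and 4.38 and 0 in EB4, and both belong to a gene family expressed in oocytes. Obox6, an oocyte homeobox gene, had 6.37 and 311 in ES and 0 reads in both EB4 libraries. The X-linked genes Xlr3a and Rhox1, a homeobox gene, had 7.28 and 918 in ES and 0 and 2.14 in EB4 (Xlr3a) and 29.1 and 709.6 in ES and 1.10 and 5.36 in EB4 (Rhox1). In Nlrp4c, Obox6, Xlr3a and Rhox1 almost all of the ES signal came from replicate 2, and the calls for these 4 genes were lost without it. Near-identical copies exist in these families, and how reads were shared between them was not checked. Myo1f, a myosin, had 216 and 230.4 in ES and 4.38 and 1.07 in EB4 (log2 change -6.07, SE 0.74, adjusted p = 0.00081) and Krt42, a keratin, 506 and 715 in ES and 13.2 and 15.0 in EB4 (log2 change -5.32, SE 0.72, adjusted p = 0.0013), with ES libraries close to each other. The sugar transporter Slc5a1 (80.1 and 449.7 in ES and 2.19 and 1.07 in EB4), Serpina3m (124 and 505 in ES and 1.10 and 7.51 in EB4), Smtnl1 (160.2 and 393 in ES and 2.19 and 8.58 in EB4), R3hdml (45.5 and 89.3 in ES and 1.10 and 0 in EB4) and Gm949 (892 and 3860.4 in ES and 24.1 and 69.7 in EB4) made up the rest, and were past the threshold without ES replicate 2 as well.

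Of all tested genes 8.98% rose and 7.57% fell, and the counts of the cell cycle, p53 and TFIID lists stand against these shares. Of 18 cell cycle genes 1 rose and 4 fell (median -0.60). Cdkn1b, the inhibitor p27, rose from 1034 and 679 to 3654 and 3783 (log2 change 2.15, SE 0.28, adjusted p = 0.0011). Ccne1, cyclin E, fell from 11170.5 and 5914 to 3453 and 3235 (log2 change -1.28, SE 0.28, adjusted p = 0.01), Mycn 2.54-fold, Ccnd3 2.12-fold and Cdkn2b 3.80-fold. Myc had 2477 and 460.0 in ES and 409 and 417 in EB4 and did not pass. Of 11 genes of the p53 pathway 3 fell and 0 rose, namely Trp53 itself (13090.0 and 9948 in ES and 7629 and 6023 in EB4), Sesn2 and the proapoptotic Bax (8122 and 6345 in ES and 3530.1 and 3539.7 in EB4; log2 change -1.02, SE 0.15, adjusted p = 0.0022). Of 17 rows for TFIID subunits, the general transcription factor to which Taf4a belongs, Taf12 and Taf13 fell by 0.94 and 0.96 on the log2 scale and 0 rose. Taf4a had 1858 and 1752 in ES and 1959.6 and 1939 in EB4 (log2 change 0.11, SE 0.15, adjusted p = 0.65).

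Counts in the next lists also stand against the 16.5% of all tested genes that passed in either direction. In the epithelial and mesenchymal list of 17, Zeb2, a repressor of epithelial genes, rose (89.2 and 68.6 in ES and 308 and 505 in EB4). Vim, vimentin, fell (4756 and 2956 in ES and 1482 and 1818 in EB4), while Cdh1, E-cadherin, had 21702 and 17426 in ES and 41249 and 21057 in EB4 and did not pass. Of 10 basement membrane genes, Nid1 and Sparc fell. Of 14 imprinted genes, Igf2r and Meg3 rose and Dlk1 and Plagl1 fell. Of 14 tested replication histone genes, Hist3h2ba and Hist3h2a rose, and most of the 62 members were under the filter of the poly-A libraries. Of 21 sterol synthesis genes, of 13 immediate early genes and of 6 sex chromosome genes, 0 passed in limma, with medians of 0.06, 0.56 and 0.28. At an unadjusted p under 0.05 there were 2, 3 and 0 of them, edgeR called 0 in each list, and DESeq2 called 1, 2 and 0. By read count, not corrected for length, the most abundant nuclear transcripts included Eef1a1 (171042 and 206419 in ES and 334909 and 233221 in EB4), which did not pass, and Eef2, a translation elongation factor that rose 1.55-fold.

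The summed level of 29 marker genes of fibroblasts, the feeder cells, was 60077 and 53927 normalised counts in ES and 33016 and 45915 in EB4. Of 26 tested members 1 rose (the matrix proteoglycan Dcn) and 2 fell, Timp1 among them, with a median of -0.23. Over all tested genes 16.5% passed in either direction. Col1a1, a chain of collagen I, had 662 and 1451 in ES and 161 and 436 in EB4, and Lum, lumican, had under 1 normalised count in each ES library and 0 in EB4. The part that feeder cells had in any change was not tested. Pou5f1, Sox2 and Nanog were detected in both ES libraries and in both EB4 libraries. Pou5f1 and Sox2 were lower in both EB4 libraries than in both ES libraries. None of the differences passed the test, which with 2 libraries per group does not show that the stages are alike.

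The cells homozygous for the Taf4a null allele (Taf4a-/-, named KO) gave the closest other comparison, with 2 libraries of KO ES and 2 of KO EB4 and no library shared. Taf4a itself had 2400.0 and 2388 in KO ES and 2369 and 2056 in KO EB4, but the allele lacks only some exons and a count over the whole gene does not test it. In KO 564 genes (3.5%) were past the threshold, of which 404 rose (2.51%) and 160 fell (0.992%). With the replicate number as a block, the KO count was 1291 (807 higher, 484 lower). Of the genes that rose in WT, 321 also rose in KO, which is 22.2% of the WT list and 79.5% of the KO list. Of those that fell in WT, 107 also fell in KO (8.77% of the WT list and 66.9% of the KO list), and 0 were called in opposite directions. The median KO log2 change was 0.73 for the genes that rose in WT and -0.57 for those that fell, which is a description, since these genes were chosen by their WT change.

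The test of the difference itself, the KO change minus the WT change, called 0 of 16124 genes (0%) in limma, with 1129 at an unadjusted p under 0.05, 0 in edgeR and 111 in DESeq2. Without ES replicate 1 of WT, limma called 38, and with the replicate block 8. No gene was therefore shown by limma on all libraries to change in WT alone. Dnmt3l, which fell in WT, had 6356 and 10182 in KO ES and 6735 and 10489.9 in KO EB4 (difference 3.17, SE 0.69, adjusted p = 0.36). Dppa5a had 18548 and 23607 and 13035 and 26039.7 in KO (difference 2.96, SE 0.78, adjusted p = 0.48), and Stra8 14.1 and 16.4 and 4.67 and 16.6 (difference 4.58, SE 0.95, adjusted p = 0.36). These are the lists' members with large gaps between genotypes and were picked for that after their values were seen.

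Side by side, 1 of the 16 naive genes fell in KO, namely Klf5 (log2 change -1.39, adjusted p = 0.025), with a median over the list of -0.60. Calls were fewer in KO over all tested genes too, with 2.51% higher and 0.992% lower against 8.98% and 7.57% in WT. Fewer calls in a list therefore do not by themselves show a difference between genotypes. In the hypoxia list 7 of 14 rose in KO (median 2.28), among them Egln1 from 421 and 385 to 2583 and 2168 and Bnip3 from 1233.6 and 677 to 8399 and 9275. Fgf5 rose from 129.5 and 359.5 to 2751 and 1589 (log2 change 3.27, adjusted p = 0.0069) and Otx2 by 2.11. Of the 12 mitochondrially encoded genes 1 fell in KO (median -0.57).

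Of the 146 genes named above as changed in WT, 62 stayed past the threshold with each of the 4 WT libraries left out in turn. They include Klf4, Klf5, Esrrb, Tfcp2l1, Nr0b1, Nr5a2 and Gbx2 of the naive list, Dppa2, Dppa5a and Gdf3 of the core list, and Fgf5, Zic2, Sall2 and Tcf15 of the formative list. Dnmt3l, Nodal, Furin, Smad3, Smad4, Id2, Fzd7, Lrp6, Jak2 and Spry1 did so as well. So did Egln1, Egln3, Bnip3, Adm and Ankrd37 of the hypoxia list, Pfkl and Tpi1 of glycolysis and mt-Co1, mt-Atp8 and mt-Nd3. The others lost their call without at least 1 library, namely 43 without ES replicate 1, 54 without ES replicate 2, 58 without EB4 replicate 1 and 61 without EB4 replicate 2. Bmp4, Dab2, Dcn, Hoxa10, Ndufs5, Smad7 and Tcf7l1 lost it whichever WT library was left out. The named genes include the largest rises and falls, which were taken only where the groups did not overlap. The share that held among all genes past the threshold is not given here. The 62 of 146 therefore describe the named genes only, and not the called genes in general.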

How the data were processed

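The deposited table holds, per the labels, a normalised signal for 27807 genes in 16 poly-A libraries read as single-end reads. Per the study's methods, the authors aligned reads to mm9 (NCBI37) with TopHat and normalised with DESeq2, and the submitters' processing notes list TopHat2 2.0.10, HTSeq 0.5.4p3, DESeq2 1.0.19 and CASAVA 1.7 and 1.8. The use of strand in counting is not given in the sources used here. All values were whole multiples of 1 step per library (100% within a relative tolerance of 1e-06), as read counts divided by 1 size factor per library would be. These steps gave back whole reads, between 22442118 and 40711826 per library. Counting floors (3 reads) cover counting error only. GENCODE M1 held 27603 of the identifiers.

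Log2(value + 1) was fitted with limma 3.58.1 (8 group means, 16 libraries, eBayes with trend, 8 residual and 4.275 prior degrees of freedom, two-sided). Genes with a mean of at least 10 were tested, with Benjamini-Hochberg adjustment and a threshold of 0.05. This scale understates the change of low genes. edgeR 4.0.16 and DESeq2 1.42.0 served as alternatives on the recovered reads, in R 4.3.3, and a gene without an adjusted p in DESeq2 was left out of its counts. Other pseudocounts, filters, scalings, thresholds, a replicate block and leaving out libraries were also tried. Groups come from the sample titles. The members and lists were chosen with earlier results of these data known. The genes named are members of 34 lists, the 12 largest rises and falls (protein-coding, larger group mean of at least 50, groups that do not overlap) and the 8 highest means per group, beside those said to be picked later. Promoters were matched for 12024 of the 16124 tested genes (74.6%, under 80%), so a planned check of TATA boxes, E-boxes and CpG content over the genes that changed is void. A few genes of the lists and of the largest changes are not reported here.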

Additional observations from a re-analysis of the deposited data

How the results depend on the processing

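With 2 libraries per group, p-values measure the spread between these libraries, pooled over all groups. The WT comparison called 2668 genes (1448 higher, 1220 lower). It called 844 (503 and 341) at an adjusted p under 0.01, 1724 (943 and 781) where the log2 change also had to reach 1, and 0 (0 and 0) when only the groups compared entered the fit, where 3380 had an unadjusted p under 0.05. DESeq2 called 3911 (1992 higher, 1919 lower) and edgeR 2647 (1427 and 1220). Leaving out 1 WT library gave 1289 to 2180 (662 to 1145 higher, 627 to 1035 lower), with 1509 without EB4 replicate 1 and 1289 without EB4 replicate 2. The KO comparison called 564 (404 and 160), and 310 (222 and 88) with no filter, 361 (83 lower) with quantile normalisation, 23 (12 and 11) with only its groups, 52 (40 and 12) at 0.01, 98 lower with the log2 limit and 1668 (1012 and 656) in DESeq2. Leaving out 1 KO library gave 2 to 81 (0 to 61 higher, 2 to 20 lower), all 4 libraries moving the count, with 61 and 45 without ES replicates 1 and 2 and 2 and 81 without EB4 replicates 1 and 2. The difference between genotypes called 0, and 111 (90 and 21) in DESeq2, and 0 to 38 (0 to 31 higher, 0 to 7 lower) with a library left out, 38 without WT ES replicate 1 and 1 without WT EB4 replicate 2. The replicate block gave 3873 in WT (1981 higher, 1892 lower), 1291 in KO (807 and 484) and 8 for the difference (8 higher). The study's methods name 2 independent lines per genotype, but no source ties a number to a line. Across genes, the differences between replicates had r = -0.08 for WT ES with WT EB4, 0.39 for KO ES with KO EB4 and 0.52 to 0.61 among WT EB4, EB5 and EB8, so the numbers may mark lines in KO and in the WT EBs but not from WT ES to WT EB4. Directions turned only in named genes that were not past the threshold, and the cause was not tested. Dusp6 was at -0.28 in edgeR and -0.30 in DESeq2, and Ddx3y at -1.28 and -1.30. With 1 WT library left out, the log2 change ranged from -1.01 to 1.11 in Dusp6, -2.32 to 7.95 in Ddx3y, -0.79 to 8.03 in Eif2s3y, -3.57 to 1.50 in Xist, -0.38 to 0.012 in Dnmt1, -2.39 to 0.33 in Id1, -2.24 to 0.96 in Socs3, -0.090 to 1.21 in Pax6, -0.98 to 2.02 in T, -0.23 to 2.43 in Cyp26a1, -0.71 to 2.75 in Mixl1 and -2.16 to 0.60 in Zfp42. ES replicate 1 (Dnmt1, Id1, Socs3), ES replicate 2 (Ddx3y, Eif2s3y, Xist, Pax6, T, Dusp6) and EB4 replicate 2 (Cyp26a1, Mixl1, Zfp42, T, Dusp6) were the libraries without which the sign turned.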

Other observations

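The 2 WT ES libraries differed from each other more than the libraries of any other group. The median absolute log2 difference between replicates was 0.44 in WT ES, 0.35 in WT EB4 and 0.25 in KO ES, and 3032, 2488 and 1330 genes differed by over 1 on that scale. Dusp6 (6338 and 1461), Spry4 (4493 and 877), Socs3 (2507 and 272), Id1 (2915 and 442) and Myc (2477 and 460.0) were higher in ES replicate 1. The pluripotency factor Nanog (6242 and 22357) and the germ cell gene Dazl (111 and 1582) were higher in ES replicate 2. The imprinted gene Grb10 stood at 17807 and 1147 in the same order of libraries. These genes were picked after their values were seen, 1 library against 1 gives no test, and the study's methods name 2 independent lines per genotype without saying which library came from which.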
